A study of Mus musculus with 16 samples.

Results

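Among the transcripts of the mouse hippocampus, 15765 were assembled isoforms at annotated loci, that is, transcripts that the authors' assembler built from the reads and gave its own name (MSTRG) at a locus that also held at least 1 annotated Ensembl transcript. They were chosen by name alone, without their values. They made up 15765 of the 80137 transcripts and lay at 6190 of the 19493 loci, beside 31525 annotated transcripts of the same loci. A further 3152 assembled isoforms lay at loci with no Ensembl transcript and were not members.

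RNA was measured in 16 male wild type C57BL/6 mice of 3 months, in 4 groups of 4, and each library held the 2 hippocampi of 1 mouse. Homecage mice (HC) were left undisturbed. Control mice (Ctrl) were put into the shuttle box a day earlier without shock, and then had 30 escape trials at 0.4 mA. Non-helpless (NLH) and helpless (LH) mice were both given 180 inescapable shocks (0.4 mA) and then the 30 escape trials, and were told apart only by how they escaped. NLH and LH are called the shocked groups below, although Ctrl mice also met foot shocks in the escape trials. Tissue was taken 3 h after the test. The unit is FPKM, the number of fragments scaled by transcript length and by library size, so that levels of different transcripts can be set side by side per length. Read counts were not used here, and the depth behind each value is unknown. The tissue is bulk, so fewer cells of a type and less RNA per cell cannot be told apart.

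Most mammalian genes give several isoforms, through alternative start sites, alternative splicing and alternative polyadenylation. Brain is known for rich alternative splicing, above all in genes of synapses and ion channels, and for long 3′ ends. A reference annotation lists only part of these forms. An assembler such as StringTie follows the read paths across exons and names each path that matches no annotated transcript, and the reads of the locus are then divided among all listed forms by an estimate. An isoform's level is therefore tied to the other forms of its locus, and values such as 1e-14 are estimates near 0. The exon structures and sequences of the assembled isoforms were not used here, so the host genes are given with their positions in GRCm38 (mm10), from GENCODE vM21. Near-identical gene copies and antisense genes share reads where the counting cannot separate them, and the strand setting is not given in the sources used here.

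The libraries of LH replicates 3 and 4 stood apart. They listed 10846 and 15504 transcripts at exactly 0, against 4872 to 7352 in the other mice. At least 0.1 FPKM was reached by 73.7% and 68.9% of the assembled isoforms in these 2 mice and by 77.9% to 81.1% in the others. Among annotated transcripts of the same loci the shares were 58.4% and 50.3%, against 64.8% to 70.2%. All 10 markers of hippocampal neurons were in the table. Red blood cell markers summed to 144 to 459 FPKM over the 4 LH mice and 215 to 398 FPKM over the other mice. The main counts of calls in the LH comparisons, and isoforms of those comparisons that passed the adjusted test, are therefore also given without LH replicates 3 and 4. Calls by level, calls left after removing those of other comparisons, counts without overlap and unadjusted limma counts are given with all mice only.

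A typical assembled isoform was expressed at a low level. The median of the mean FPKM over the 16 mice was 0.613, beside 0.456 for annotated transcripts of the same loci. A mean of at least 1 FPKM was held by 5275 (33.5%) of the assembled isoforms and 10446 (33.1%) of the annotated transcripts. At 10 FPKM or more the sets parted, with 141 assembled isoforms and 1320 annotated transcripts. At 0.1 FPKM or more in every one of the 16 mice were 49.5% of assembled isoforms and 33.8% of annotated transcripts. This is a description only, since an isoform is assembled only where reads of these libraries cover it, and a mean under 0.1 FPKM was held by 11.7% of assembled isoforms and 22.5% of annotated transcripts. For transcripts of at least 1 FPKM, the median SD of the log2 values was 0.167, 0.155, 0.223 and 0.348 for assembled isoforms (HC, Ctrl, NLH and LH in turn), beside 0.226, 0.208, 0.278 and 0.503 for annotated transcripts.

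Of the 6190 loci, 5998 were protein coding, 176 were long non-coding RNA loci, 15 were pseudogenes and 1 was of another class. One assembled isoform was found at 2895 loci, 2 at 1334, 3 to 9 at 1805 and 10 or more at 156. A single locus stood out with 225 assembled isoforms of its 239 transcripts. It spans Snrpn and Snhg14, the imprinted Prader-Willi region on chromosome 7 (Snrpn at 59982495 to 60140219, Snhg14 at 59307924 to 59975759, both on the minus strand), where a long non-coding host transcript carries small nucleolar RNAs. At 517 loci the transcripts had more than 1 gene name, and these held 2097 of the members. A member of such a locus cannot be given to 1 gene.

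Host genes were longer than other genes. Among protein coding loci with 1 gene name and a mean of at least 1 FPKM, the 5421 with an assembled isoform had a median span of 39.1 kb, a median of 12 exons in the longest transcript and a median locus level of 7.92 FPKM. The 4127 without one had medians of 21.5 kb, 8 exons and 3.39 FPKM. The share of genes that held an assembled isoform was 41.8% (767 of 1833) under 10 kb, 50.1% (1516 of 3028) from 10 to 30 kb, 62.7% (1883 of 3004) from 30 to 100 kb, 71.3% (891 of 1249) from 100 to 300 kb and 83.9% (364 of 434) above that. The median share of the locus FPKM held by its assembled isoforms went from 12.3% in the shortest class through 16.5%, 18.9% and 24.4% to 29.9% in the longest. These are descriptions across genes, which differ in level as well as in length.

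The assembled isoforms together carried about 22% of the FPKM of their loci in each group. The share was 21.9, 21.9, 22.9 and 21.7% in the 4 HC mice, 22.7, 21.9, 21.7 and 21.9% in Ctrl, 21.9, 20.7, 20.9 and 21.6% in NLH, and 20.9, 20.7, 22.7 and 26.4% in LH. The means ± SD (n = 4) were 22.1 ± 0.531, 22.1 ± 0.454, 21.3 ± 0.561 and 22.7 ± 2.65%. LH replicate 4 was the highest of the 16 mice, and the 4 groups overlapped, so their order is within the spread. No p is given for this sum over the members.

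**Figure D1:**
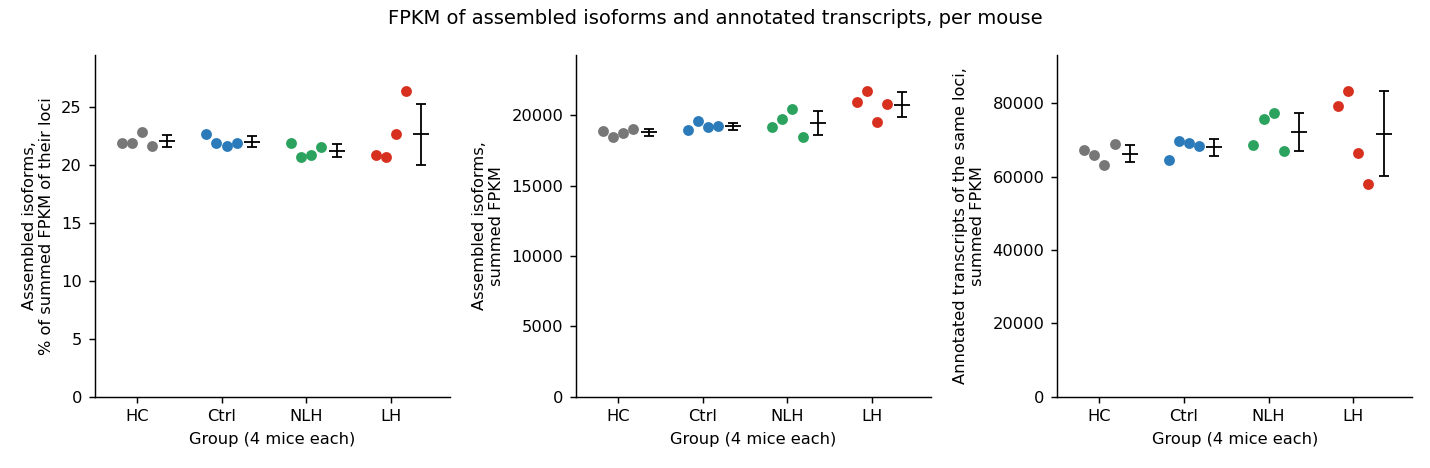
For each mouse of the HC, Ctrl, NLH and LH groups (points, replicates 1 to 4 from left to right, with the group mean ± SD as a bar), the share of the FPKM of 6190 annotated loci that was held by assembled isoforms in percent, the summed FPKM of the assembled isoforms, and that of the annotated transcripts of the same loci. LH replicate 4 has the highest share, at 26.4%, and the lowest annotated sum, at 58087 FPKM.

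The high share of LH replicate 4 went with a low annotated sum. Assembled isoforms summed to 18433 to 20429 FPKM in the 12 mice of the other groups and to 20938, 21707, 19537 and 20833 FPKM in LH replicates 1 to 4. Annotated transcripts of the same loci summed to 58087 FPKM in LH replicate 4, to 66345 FPKM in LH replicate 3 and to 83262 FPKM in LH replicate 2, the lowest and the highest of these sums being those of replicates 4 and 2. For transcripts of at least 1 FPKM, the median log2 difference of LH replicates 3 and 4 from LH replicates 1 and 2 was −0.02 for assembled isoforms and −0.46 for annotated transcripts. The part of these libraries in the group mean was not tested beyond leaving them out.

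Over the 6078 loci with a mean of at least 1 FPKM, the share held by assembled isoforms had a median of 18.7% and quartiles of 7.79 and 39.2%. It was under 10% at 1921 loci (31.6%), 10 to 50% at 3133 (51.5%), 50 to 90% at 901 (14.8%) and at least 90% at 123 (2.02%). An assembled isoform was the most abundant form in every one of the 16 mice at 458 loci and in none at 3630. At the other 1990 loci the leading form changed between an annotated and an assembled one from mouse to mouse. Where assembled isoforms held most of the FPKM, the principal isoform of the annotation (APPRIS) was missing from the table more often. A principal isoform was listed at 98.3% of 1692 protein coding loci with a share under 10%, 96.0% of 2844 loci from 10 to 50%, 92.2% of 791 loci from 50 to 90% and 80.6% of 93 loci above that.

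**Figure D2:**
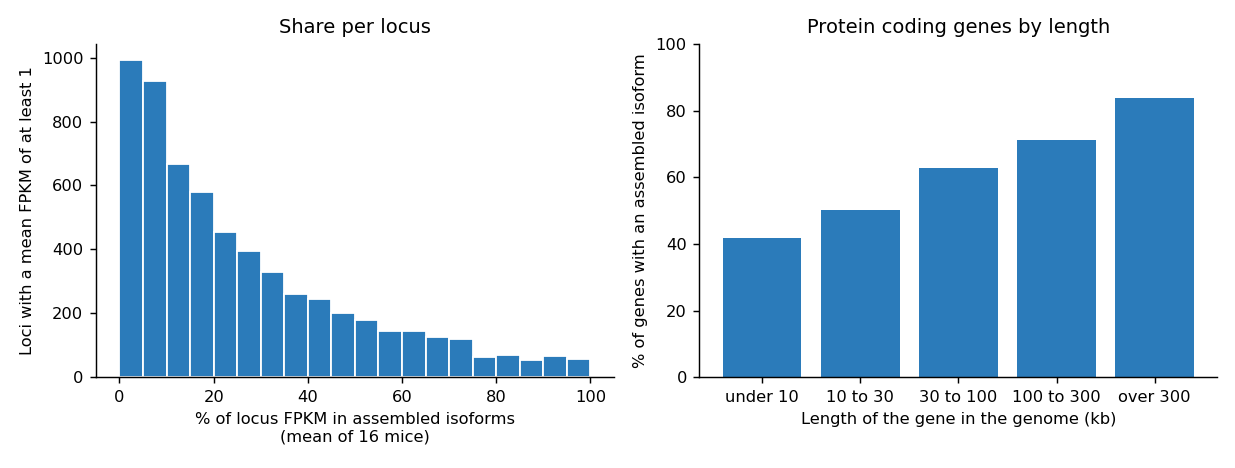
Left, number of loci (vertical axis) by the share of locus FPKM in assembled isoforms in percent, over 6078 loci with a mean of at least 1 FPKM. Right, percent of protein coding genes that held an assembled isoform by the length of the gene in kb, which goes from 41.8% under 10 kb to 83.9% in the longest genes.

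The 10 most abundant assembled isoforms made up 9.22% of all assembled FPKM. The highest of all, MSTRG.35277.10, belonged to Malat1, a long nuclear RNA of splicing speckles (chromosome 19, 5795690 to 5802672, minus strand), at a mean of 642 FPKM. It read 574 to 616 FPKM in HC, 601 to 695 in Ctrl, 570 to 697 in NLH and 627 to 764 in LH, and held 26.4% of its locus. It passed in no comparison (limma adjusted p at or above 0.677 in each). Ywhaz, a 14-3-3 adaptor protein, had an assembled isoform at 175 FPKM that held 69.9% of its locus. Camk2n1, an inhibitor of CaMKII, had one at 123 FPKM with 96.2% of the locus, and its values of 110 to 116 FPKM in HC, 114 to 121 in Ctrl, 122 to 144 in NLH and 108 to 150 in LH overlapped between LH and every other group.

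Some loci of well known genes were led by assembled forms. Ndrg2, an astrocyte gene of the N-myc downstream regulated family, had an assembled isoform at 67.7 FPKM with 64.9% of the locus. The ribosomal protein genes Rps23 and Rpsa had 1 each, at 65.6 and 57.5 FPKM with 77.4 and 77.7% of the locus, though ribosomal protein genes have processed pseudogenes that can share their reads. An isoform of Snrpn/Snhg14 stood at 130 FPKM and 35.4% of its locus. Rps23 had means ± SD (n = 4) of 57.6 ± 6.09 FPKM for HC, 60.9 ± 4.97 for Ctrl, 75.9 ± 8.27 for NLH and 68.1 ± 10.3 for LH, and no difference passed the limma test.

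The second highest assembled isoform, MSTRG.33038.2 at 437 FPKM, was a form of Ttr, which encodes transthyretin and is the classic gene of the choroid plexus. It read 357, 8.56, 472 and 452 FPKM in HC, 342, 656, 249 and 280 in Ctrl, 260, 425, 839 and 11.9 in NLH, and 881, 1400, 356 and 6.05 in LH. Thus 3 mice, 1 each of HC, NLH and LH, were far below all others of their group. This and a second assembled isoform together held 97.8% of the locus, which had 1 annotated transcript. Choroid plexus markers, their assembled isoforms included, summed to 7.63 to 1480 FPKM over the mice and to 1.59 to 83.1 FPKM when only annotated forms were added. A check of choroid plexus tissue by annotated names alone would therefore miss most of this RNA. For Ttr the limma adjusted p was 0.936 or higher in each comparison.

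At the loci with the highest shares, hardly any FPKM was left to the annotated form. Of loci with a mean of at least 5 FPKM, these were Neo1 (neogenin, a receptor of netrins and repulsive guidance molecules) at 99.9%, the long non-coding RNA 3300002P13Rik at 99.8%, Phf20l1 (a chromatin reader), Cacna2d3 (an auxiliary subunit of calcium channels) and Ctif (a translation initiation factor of the nuclear cap-binding complex) at 99.7% each, and Pter at 99.6%. Neo1 had 11 assembled isoforms among 12 transcripts, of which the leading one stood at 3.19 FPKM and the annotated one at 0.015 FPKM. Pter had a single assembled isoform at 15.6 FPKM. The group means of these 6 shares were all 98.8% or higher.

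Assembled isoforms were found at most genes of the 8 function lists. Of all 18287 gene names, 6826 (37.3%) had one. Of the presynaptic release genes in the table, 23 of 28 had one (119 isoforms, median locus share 19.5%), and of postsynaptic scaffolds and adhesion genes, 26 of 27 (203 isoforms, 34.8%). Glutamate and GABA receptors had 27 of 33 (112 isoforms, 20.5%), calcium and cAMP signalling 28 of 35 (126 isoforms, 12.0%) and cytoskeleton and motors 24 of 35 (141 isoforms, 15.4%). Splicing factors had 51 of 54 (269 isoforms, 29.5%), chromatin regulators 42 of 52 (161 isoforms, 24.9%), and immediate early and glucocorticoid response genes 15 of 25 (43 isoforms, 9.3%). Span and level, which differed between host genes and others above, were not matched here, and their part was not tested.

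Within these lists the share differed from gene to gene. Dlg4, which encodes the postsynaptic scaffold PSD-95 (chromosome 11, 70016942 to 70047522, plus strand), had 1 assembled isoform, MSTRG.11896.6, at 56.8 FPKM and 62.0% of the locus, with group means of 60.8 ± 3.12% for HC, 61.4 ± 1.16% for Ctrl, 62.3 ± 1.18% for NLH and 63.6 ± 8.01% for LH (SD, n = 4). Rbfox1, a neuronal splicing factor that shares its locus with 1700123O21Rik, had 22 assembled forms among 25 and a share of 95.7%. Map2, the dendritic microtubule protein, stood at 56.9%, Celf2 at 43.8% and the synaptic vesicle calcium sensor Syt1 at 28.9%. By contrast the shared locus of Vamp2 and Tmem107 stood at 0.767%, Camk2a at 2.19% and the motor gene Kif5a at 0.0662%. The AMPA receptor subunits Gria1 and Gria2 were at 31.5 and 25.2%. Of the corticosteroid receptors, the mineralocorticoid receptor Nr3c2 had 11 assembled forms and a share of 71.1%, and the glucocorticoid receptor Nr3c1 had 2 and a share of 3.86%. Zbtb16, a glucocorticoid responsive transcription factor, stood at 77.5%.

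Among cell type markers, assembled isoforms were found at 5 of 10 hippocampal neuron markers, 6 of 8 astrocyte, 3 of 7 oligodendrocyte, 0 of 8 microglia, 2 of 5 endothelial, 2 of 6 choroid plexus, 2 of 8 striatum and 1 of 4 red blood cell markers in the table. The myelin gene Mal had 1 at 29.9 FPKM and 89.9% of its locus, and Penk, the enkephalin precursor, had 1 at 4.26 FPKM and 96.9%. The astrocyte genes Slc1a2 and Gfap stood at 11.1 and 1.28%. Oligodendrocyte markers summed to 297 to 565 FPKM in LH and 358 to 554 FPKM in the other mice. Striatum markers summed to 25.5, 28.9, 22.8 and 12.4 FPKM in LH replicates 1 to 4 and to 16.6 to 22.6 FPKM in the other mice, so that 3 of the 4 LH mice were above all others and replicate 4 was below. The part of such tissue in the LH comparisons was not tested.

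The protein coding genes that the study measured by real time PCR differed in the same way. Rab3a had no assembled isoform, and the reference gene Gapdh had 1 with 0.755% of the locus. Nub1 stood at 2.38%, Prkacb at 6.0% and the shared locus of Cacnb4 and Arl5a at 6.97%. The share was 26.3% at Tcf4 (15 of 57 transcripts), 28.9% at Grik2, 29.7% at Rbfox2 and 41.9% at the main Dlg2 locus (14 of 26 transcripts). Grik2 had group means of 26.8 ± 2.5% for HC, 27.6 ± 2.33% for Ctrl, 26.8 ± 8.4% for NLH and 34.5 ± 8.06% for LH (SD, n = 4), within the spread of the shocked groups.

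Helpless mice were set against control mice, which had the test but not the inescapable shocks. In LH vs. Ctrl, the test of the study's methods, on FPKM at an unadjusted p under 0.05, called 1557 of the assembled isoforms (9.88%), where it called 7.69% of all transcripts tested. Of these, 507 were higher and 1050 lower in LH, where 2.89% of all transcripts were called higher and 4.8% lower. Of the annotated transcripts at the same loci it called 2428 (7.78%), 1014 higher and 1414 lower. Leaving out the calls of Ctrl vs. HC and of NLH vs. Ctrl, as the methods did, left 1084 assembled isoforms (6.88% of those tested) in LH vs. Ctrl, beside 5.37% of all transcripts, and 601 (3.81%) in LH vs. NLH, beside 3.45%. The direction moved with the level, since 83.3% of the 24 calls at 10 FPKM or more and 31.0% of the 630 calls at 1 to 3 FPKM were higher in LH. Annotated transcripts of the same loci did likewise, with 91.3% of 173 calls and 49.7% of 604 calls higher at these levels. The median log2 difference was −0.072 over the assembled isoforms and −0.064 over all transcripts.

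Calls of assembled isoforms in both directions were more numerous without LH replicates 3 and 4. That setting left LH replicates 1 and 2. Their summed FPKM, 150826 and 158004, were the highest of the 16 mice (others 120208 to 147192). FPKM were not scaled between mice, and the part of this in the calls was not tested. In LH vs. Ctrl the lower calls went from 1050 to 1306 and the higher calls from 507 to 1086, so that 45.4% of 2392 calls were higher, against 32.6% with all mice. In LH vs. NLH the lower calls went from 503 to 543 and the higher calls from 276 to 630, so that the higher calls made up 53.7% of 1173, against 35.4%. Without these mice the test called 15.2% of the assembled isoforms in LH vs. Ctrl, 6.91% higher and 8.31% lower, beside 13.7% of all transcripts, 9.72% higher and 3.99% lower. In LH vs. NLH it called 7.46%, 4.01% higher and 3.46% lower, beside 6.39% of all transcripts, 4.42% higher and 1.97% lower. Annotated transcripts of the same loci turned from mostly lower to mostly higher calls when these mice were left out. Against Ctrl, 80.4% of their 4239 calls were then higher (3410 against 829), where the share was 41.8% of 2428 with all mice. Against NLH the share rose to 74.3% of 1822 calls, from 25.8% of 1479 with all mice. Of the 1050 lower calls in LH vs. Ctrl with all mice, 190 (18.1%) were under 0.1 FPKM in both replicates 3 and 4, and for 39 of them replicates 1 and 2 were both at 0.1 FPKM or more. Among the annotated lower calls the counts were 679 (48.0%) and 128.

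The other comparisons gave fewer calls, and they share mice with this one, LH mice with LH vs. NLH and Ctrl mice with NLH vs. Ctrl and Ctrl vs. HC. In LH vs. NLH the test called 779 assembled isoforms (4.94%) against 4.47% of all transcripts, 276 higher and 503 lower (background 1.27 and 3.2%). In NLH vs. Ctrl it called 1309 (8.32%) against 7.2%, 558 higher and 751 lower (background 4.1 and 3.1%). Annotated transcripts of the same loci were mostly higher in NLH there, 1545 against 884. In Ctrl vs. HC it called 1302 (8.28%) against 6.68%, 742 higher and 560 lower (background 3.85 and 2.83%). The groups did not overlap for 1108 assembled isoforms in LH vs. Ctrl (7.03%, background 5.85%), 505 in LH vs. NLH (3.2%, background 3.18%), 874 in NLH vs. Ctrl (5.54%, background 5.02%) and 835 in Ctrl vs. HC (5.3%, background 4.48%). These percentages were close to the background and are given as a description.

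**Figure D3:**
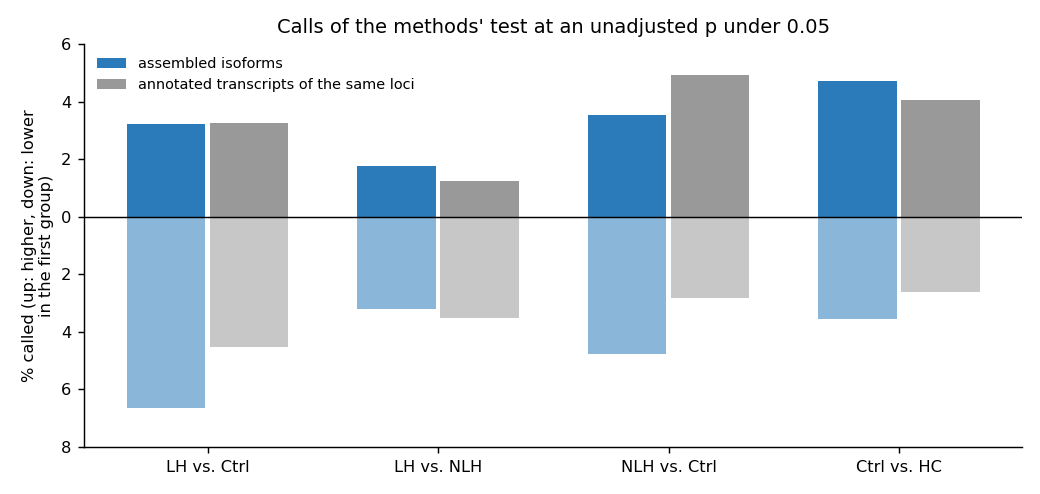
Assembled isoforms and annotated transcripts of the same loci called higher or lower by the methods' test (unadjusted p under 0.05) in each of the 4 comparisons, as a percent of those tested. The assembled isoforms have more lower than higher calls in LH vs. Ctrl (1050 and 507), LH vs. NLH (503 and 276) and NLH vs. Ctrl (751 and 558), and more higher calls in Ctrl vs. HC (742 and 560).

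After adjustment over all 80137 transcripts, few assembled isoforms remained. Limma, on log2(FPKM + 0.1), passed 4 in LH vs. Ctrl (background 0.0462%), 3 in LH vs. NLH (0.0412%), 0 in NLH vs. Ctrl (0.0125%) and 0 in Ctrl vs. HC (0.00374%). At an unadjusted limma p under 0.05 there were 1890 (background 10.7%), 1432 (8.72%), 713 (5.12%) and 473 (3.45%), which are 12.0, 9.08, 4.52 and 3.0% of the assembled isoforms. The methods' test with the same adjustment passed 2, 0, 0 and 0. These counts moved with single mice, and the counts over all transcripts in the same settings are not given here. The count for LH vs. Ctrl was 1 without Ctrl replicate 1, 66 without LH replicate 2 and 65 without LH replicates 3 and 4, and that for LH vs. NLH was 0 without LH replicate 4 and 42 without NLH replicate 1. Across all 4 groups at once, limma's F test passed 9 (background 0.0948%). Of the isoforms that passed, and those near them, those reported are described below by host gene. The isoforms of Baz2a, Arnt2, Cit, Epha5, Mfsd6 and Gnptab were outside the naming rule, so these were named after their values were seen.

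A low abundance form of Malat1, MSTRG.35277.1, was higher in both shocked groups. It read 1.42, 1.83, 1.75 and 1.44 FPKM in HC, 2.09, 1.64, 1.81 and 1.61 in Ctrl, 4.31, 2.97, 4.28 and 3.44 in NLH, and 3.51, 3.09, 4.24 and 4.81 in LH. All 8 shocked mice were above all 8 others. It rose in LH vs. Ctrl by 1.08 ± 0.17 on the log2 scale (limma, adjusted p = 0.0343). In NLH vs. Ctrl the difference was 1.02 ± 0.17, just outside the threshold (adjusted p = 0.0703), and in LH vs. NLH it was 0.05 ± 0.17. The F test over the 4 groups gave an adjusted p of 0.0106 and stayed past the threshold under each of 22 alternatives (0.00344 to 0.0446). The isoform held only 0.112% of its locus over the 16 mice, with shares of 0.0674 to 0.0846% in Ctrl and 0.118 to 0.163% in LH. The LH vs. Ctrl call was lost without any one of HC replicates 1 and 4, the 4 Ctrl replicates or LH replicate 3 (adjusted p up to 0.0915), and the p was 0.0555 without LH replicates 3 and 4, 0.0549 with 1 added, 0.0649 with size factors and 0.154 with only the 8 mice compared.

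An assembled isoform of 2900011O08Rik, MSTRG.27375.1, a protein coding gene on chromosome 16 (13986604 to 14101500, plus strand), rose in LH. It read 14.4, 15.9, 13.1 and 14.7 FPKM in HC, 12.2, 17.8, 13.0 and 13.1 in Ctrl, 21.3, 17.7, 21.0 and 18.3 in NLH, and 23.5, 26.0, 24.2 and 31.6 in LH. All LH mice were above all others, and Ctrl replicate 2 lay within the NLH range. The log2 difference was 0.91 ± 0.13 in LH vs. Ctrl (limma, adjusted p = 0.0299) and 0.42 ± 0.13 in LH vs. NLH (adjusted p = 0.38). Its 3 annotated partners together read 18.9 to 22.4 FPKM in Ctrl and 12.1 to 26.6 in LH. The isoform held 47.3% of the locus. The call was lost without Ctrl replicate 1, 3 or 4 (up to 0.0723) and with only the 8 mice compared (0.164), and kept without LH replicates 3 and 4 (0.0367).

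Baz2a encodes TIP5, the large subunit of the nucleolar remodelling complex that silences ribosomal DNA (chromosome 10, 128091577 to 128129303, plus strand). Its isoform MSTRG.9379.1 was at or below 0.0651 FPKM in the 12 mice of HC, Ctrl and NLH and read 0.223, 0.244, 0.767 and 0.902 FPKM in LH. It rose in LH vs. Ctrl (log2 difference 2.48 ± 0.36, limma adjusted p = 0.0321) and in LH vs. NLH (2.30 ± 0.36, adjusted p = 0.0389). The other forms of the locus read 3.88 to 5.4 FPKM in LH and 4.63 to 5.29 in Ctrl and NLH. Since the level outside LH is near 0, the log2 difference depends on the added 0.1, and with 1 added the adjusted p was 0.117 and 0.177. With only the 8 mice of each comparison it was 0.229 and 0.598, and with size factors 0.0363 and 0.0521. Without LH replicates 3 and 4 it was 0.0137 and 0.0322. Leaving out any one Ctrl mouse or LH replicate 3 took the LH vs. Ctrl call away (up to 0.0766), and 13 of 16 single mice took the LH vs. NLH call away (up to 0.105).

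Nedd8, a ubiquitin-like protein that activates cullin ligases (chromosome 14, 55662263 to 55672124, minus strand), and Mfsd6, a transporter of the major facilitator family (chromosome 1, 52656286 to 52727462, minus strand), each had an isoform that differed over the 4 groups. The Nedd8 isoform read 4.76, 4.1, 3.97 and 3.67 FPKM in HC, 4.57, 5.05, 3.77 and 4.12 in Ctrl, 8.13, 9.44, 8.04 and 6.08 in NLH, and 8.55, 9.97, 11.5 and 5.86 in LH (limma F, adjusted p = 0.0472). The Mfsd6 isoform read 5.08, 4.23, 4.91 and 4.97 FPKM in HC, 4.94, 5.52, 5.13 and 5.14 in Ctrl, 7.31, 6.12, 7.01 and 6.77 in NLH, and 7.99, 6.66, 7.35 and 7.7 in LH (adjusted p = 0.0333). In both, all 8 shocked mice were above all 8 others, as for the Malat1 form. Singly, LH vs. Ctrl did not pass for Nedd8 (0.99 ± 0.19, limma adjusted p = 0.0891) or Mfsd6 (0.51 ± 0.10, 0.0831). The F call was lost for Nedd8 without 12 of the 16 single mice (up to 0.105) and for Mfsd6 without 10 (up to 0.0724). Without LH replicates 3 and 4 it was 0.011 and 0.0353. The Nedd8 call was also lost with 1 added (0.0731) and the Mfsd6 call with size factors (0.0717).

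An isoform of Fam213a, a peroxiredoxin-like gene (chromosome 14, 40993740 to 41013788, minus strand), was higher in LH without passing. It read 7.06, 7.15, 6.24 and 4.52 FPKM in HC, 2.9, 6.02, 5.82 and 4.64 in Ctrl, 8.82, 9.5, 13.8 and 5.9 in NLH, and 12.4, 13.3, 13.6 and 13.5 in LH. The LH values, with an SD of 0.552 FPKM, lay above all Ctrl and HC mice (log2 difference from Ctrl 1.48 ± 0.25, limma adjusted p = 0.0513). Its share of the locus was 17.6 to 31.1% in Ctrl and 47.1 to 80.4% in LH. Arfgef2, an exchange factor of vesicle trafficking, had an isoform at 0.792 to 0.947 FPKM in NLH and 1.53 to 2.74 in LH, with no overlap (1.14 ± 0.21, adjusted p = 0.0815). The sorting nexin Snx6 had one at 0.527 to 1.33 FPKM in NLH and 1.56 to 2.94 in LH (1.16 ± 0.26, adjusted p = 0.201).

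**Figure D4:**
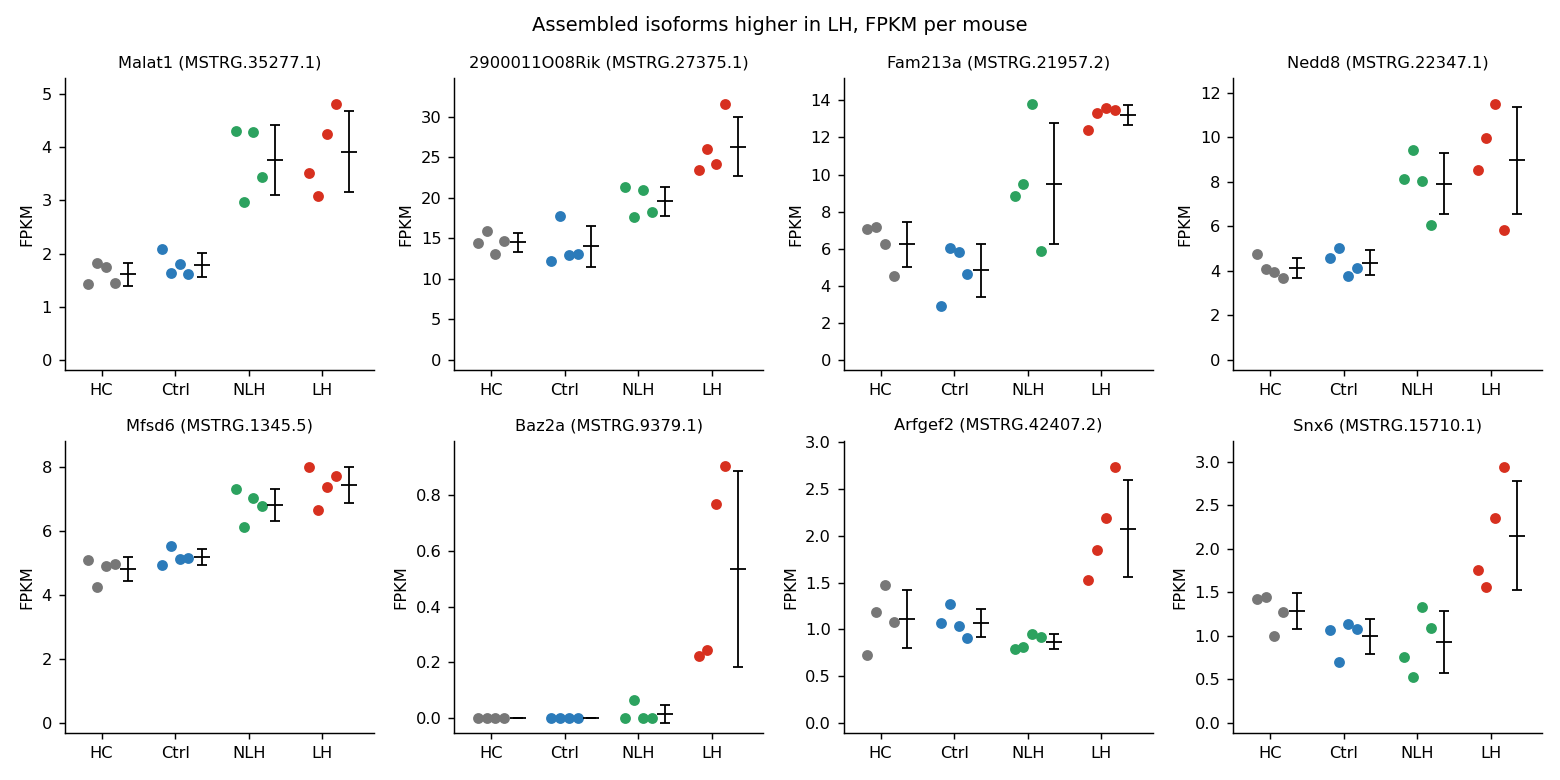
FPKM of 8 assembled isoforms (Malat1, 2900011O08Rik, Fam213a, Nedd8, Mfsd6, Baz2a, Arfgef2 and Snx6) in each mouse of the HC, Ctrl, NLH and LH groups (points, with mean ± SD as a bar). For Malat1, Nedd8 and Mfsd6 the NLH and LH mice both lie above the HC and Ctrl mice, while the Baz2a isoform is at or below 0.0651 FPKM outside LH.

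Other assembled isoforms were lower in helpless mice. Arnt2 is a transcription factor of the bHLH-PAS family and a partner of activity induced Npas4 (chromosome 7, 84246278 to 84410176, minus strand). Its isoform MSTRG.65180.10 read 0.377, 0.269, 0.247 and 0.931 FPKM in HC, 1.26, 0.189, 0.454 and 0.821 in Ctrl, 0.994, 1.01, 0.848 and 0.86 in NLH, and 0.07, 0.0285, 2.54e-14 and 6.22e-49 in LH. All LH mice were below all others. It fell in LH vs. NLH by 3.08 ± 0.45 on the log2(FPKM + 0.1) scale (limma, adjusted p = 0.0248), and its share of the locus fell with it (−3.09 ± 0.48, adjusted p = 0.0395). In LH vs. Ctrl the difference was −2.46 ± 0.45 (adjusted p = 0.0761). The rest of the locus was 15.5 to 20.3 FPKM in NLH and 15.2 to 21.5 in LH. All 4 LH mice were under 0.1 FPKM. Without LH replicates 3 and 4 the log2 difference was −2.79 for the level (limma adjusted p = 0.113) and −2.97 for the share (0.189). The level call was lost without any one of NLH replicates 2 to 4 or LH replicates 3 and 4 (up to 0.0871), and the share call without 11 of 16 single mice (up to 0.119). With 1 added the p was 0.138 and 0.22, and with only the 8 mice compared 0.0816 and 0.0387.

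The share fit passed 2 assembled isoforms in LH vs. Ctrl (background 0.0273%), that of Cit among them, and 2 in LH vs. NLH (0.0519%), those of Arnt2 and Epha5. It passed 0 in NLH vs. Ctrl (0.00546%) and 0 in Ctrl vs. HC (0.0%). At an unadjusted share p under 0.05, limma gave 1600 (background 10.7%), 1252 (9.31%), 654 (4.93%) and 384 (3.23%). Cit encodes citron kinase, which acts in cytokinesis (chromosome 5, 115845278 to 116008947, plus strand). Its isoform held 1.67, 6.3, 1.05 and 0.901% of the locus in HC, 18.1, 12.4, 18.7 and 16.7% in Ctrl, 3.69, 7.16, 0.0303 and 7.72% in NLH, and 0.644, 1.38, 4.3e-16 and 9.19e-07% in LH. Ctrl was above all other groups with no overlap, and the share fell in LH vs. Ctrl by 3.39 ± 0.50 on the log2 scale (limma, adjusted p = 0.0355). In Ctrl vs. HC the share difference was 2.40 ± 0.50 (adjusted p = 0.982).

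Epha5, an Eph receptor tyrosine kinase of axon guidance (chromosome 5, 84054761 to 84417382, minus strand), had an isoform at 0.369, 0.543, 0.458 and 0.431 FPKM in NLH and 0.128, 1.36e-13, 6.94e-06 and 3.57e-08 in LH. Only LH replicate 1 exceeded 0.1 FPKM. The share fell in LH vs. NLH by 2.31 ± 0.35 (limma, adjusted p = 0.0395), and the level differed by −2.15 ± 0.36 (adjusted p = 0.0541). Without LH replicates 3 and 4 the share difference was −3.17 for Cit (limma adjusted p = 0.177) and −2.07 for Epha5 (0.178). Each of these share calls was lost without 9 of the 16 single mice, up to 0.124 for Cit and 0.119 for Epha5. The Cit call was also lost with 0.01 added (0.103), and the Epha5 call with 1 added (0.121) and with only the 8 mice compared (0.181).

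A member of a locus with 4 gene names was low in NLH alone. The isoform MSTRG.16274.1 lay at Cox16, Synj2bp, Gm20498 and Slc8a3 on chromosome 12 (Slc8a3 at 81197915 to 81333180, Synj2bp at 81497941 to 81532911, both on the minus strand), which include genes of cytochrome oxidase assembly and of sodium and calcium exchange. It read 1.7, 1.2, 1.33 and 0.865 FPKM in HC, 1.41, 1.15, 1.04 and 0.727 in Ctrl, 0.426, 0.0931, 0.0869 and 0.25 in NLH, and 1.58, 0.731, 2.1 and 1.44 in LH. All NLH mice were below all others. LH vs. NLH passed (2.37 ± 0.37, limma adjusted p = 0.034), and NLH vs. Ctrl did not (−2.02 ± 0.37, adjusted p = 0.137). The call was lost without 9 of the 16 single mice, up to 0.109, and the p was 0.147 without LH replicates 3 and 4, 0.437 with only the 8 mice compared, 0.117 at a mean of at least 1 FPKM and 0.0946 with 1 added.

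Gnptab, whose product starts the mannose phosphate tag of lysosomal enzymes (chromosome 10, 88379132 to 88447329, plus strand), had the opposite profile. Its isoform read 0.218, 0.381, 0.552 and 0.713 FPKM in NLH, at most 0.191 in HC, at most 0.00499 in Ctrl and at most 0.0392 in LH, so that all NLH mice were above all others. It passed the F test (limma, adjusted p = 0.0472), while LH vs. NLH was at 0.0541 and NLH vs. Ctrl at 0.0703. The F call was lost without 12 of 16 single mice, up to 0.12, and with 0.01 or 1 added (0.0937 and 0.0783), and was 0.0477 without LH replicates 3 and 4.

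Several lower isoforms lay close to the threshold. Ksr1, a scaffold of the Ras and MAP kinase cascade, had one at 2.16, 2.17, 2.15 and 2.17 FPKM in Ctrl, 1.41, 1.68, 1.6 and 1.72 in NLH and 1.16, 1.3, 1.07 and 1.16 in LH. The 3 groups did not overlap (LH vs. Ctrl −0.83 ± 0.14, limma adjusted p = 0.0513), and HC, at 1.71 to 2.69 FPKM, overlapped with Ctrl and NLH. Nrxn3, a presynaptic adhesion gene with 25 assembled forms, had one at 1.87 to 2.15 FPKM in Ctrl and 0.802, 1.45, 0.804 and 0.784 in LH (−1.03 ± 0.18, adjusted p = 0.0554), where LH replicate 2 stood above the other 3. The Ksr1 isoform held 11.3% and the Nrxn3 isoform 3.38% of the locus.

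For others the LH mice split. The Celf4 isoform, of a neuronal RNA-binding protein, read 2.16 to 3.12 FPKM in Ctrl and 1.23, 0.24, 0.00139 and 0.000228 in LH (−3.46 ± 0.67, limma adjusted p = 0.0932). Snrpe, a core protein of the spliceosome (chromosome 1, 133603871 to 133610291, minus strand), had one that held 76.4% of its locus and read 7.97, 3.79, 6.16 and 2.78 FPKM in Ctrl and 2.18, 2.33, 8.94e-05 and 0 in LH (−3.33 ± 0.92, adjusted p = 0.213). The isoform of Dnm1, the vesicle fission GTPase (0.339, 0.995, 0.0314 and 1.17e-22 FPKM in LH, 1.45 to 3.0 in Ctrl), did the same. For that of Ubap2l, a stress granule protein (0.0181, 0.943, 2.98e-07 and 5.01e-20 in LH, 0.935 to 2.35 in NLH), only LH replicate 2 was above 0.1 FPKM. The isoform of Srrt, a nuclear RNA processing factor, read 0.898, 0.221, 0.000483 and 0.0153 FPKM in LH and 0.646 to 1.71 in NLH. In all 5, LH replicates 3 and 4 were under 0.1 FPKM, and none passed the adjusted limma test on level or share. Without these 2 mice the log2 differences from Ctrl were −2.09 for Celf4, −1.05 for Snrpe and −1.58 for Dnm1 (limma adjusted p = 0.112, 0.353 and 0.126), and those from NLH were −2.48 for Ubap2l and −1.33 for Srrt (0.233 and 0.354).

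**Figure D5:**
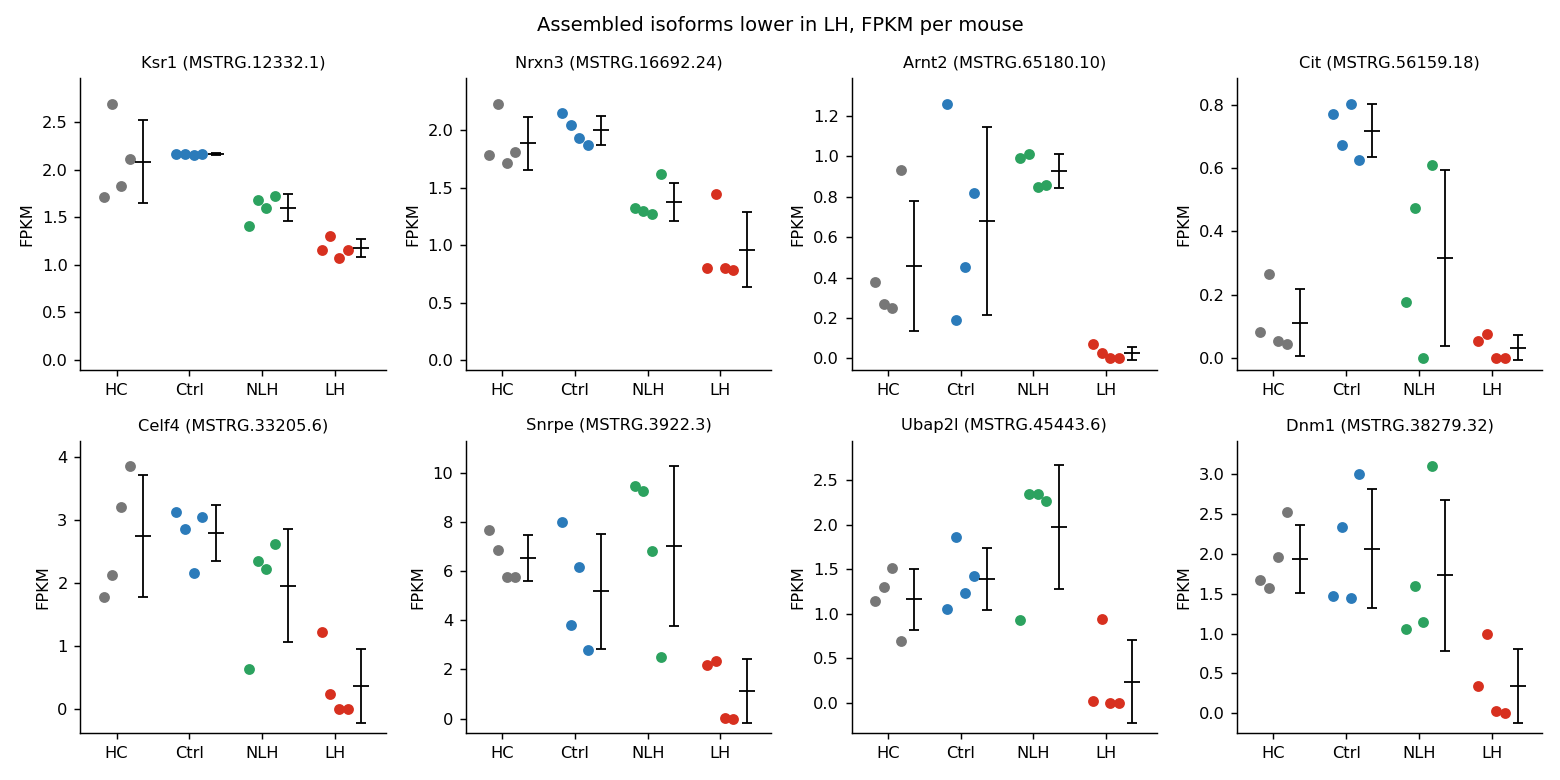
FPKM of 8 assembled isoforms (Ksr1, Nrxn3, Arnt2, Cit, Celf4, Snrpe, Ubap2l and Dnm1) in each mouse of the HC, Ctrl, NLH and LH groups (points, with mean ± SD as a bar). The Ksr1 values of LH lie together at 1.07 to 1.3 FPKM, while for Celf4, Snrpe, Ubap2l and Dnm1 the LH replicates 3 and 4 lie near 0.

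Ctrl mice differed from HC mice by handling, the shuttle box and the escape trials together, and in Ctrl vs. HC no assembled isoform passed. The isoforms with the smallest p of at least 1 FPKM were higher in Ctrl. Cds2, an enzyme of phospholipid synthesis, read 7.46, 4.75, 3.97 and 5.55 FPKM in HC and 11.4, 9.11, 9.47 and 12.1 in Ctrl. Hnrnpa1, a splicing regulator with many pseudogenes, read 2.04 to 2.41 and 3.37 to 4.27 FPKM. Cacnb3, a calcium channel subunit, read 3.42 to 4.62 and 6.43 to 9.97 FPKM. The groups did not overlap in any of the 3, and the log2 differences were 0.97 ± 0.21, 0.67 ± 0.16 and 0.91 ± 0.22 (limma adjusted p = 1 for each). An isoform at a locus of 3 gene names, Gm18190 and Vmn2r29 among them, read 0.771 to 0.937 FPKM in HC and 1.24 to 1.52 in Ctrl (0.64 ± 0.15, adjusted p = 1). One at Gm26723, a long non-coding RNA, read 20.3, 77.1 and 36.8 FPKM in Ctrl replicates 1 to 3 and at most 0.0334 FPKM in every other mouse, Ctrl replicate 4 included.

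In NLH vs. Ctrl again none passed. NLH mice were selected by their escape behaviour and Ctrl mice were not, so inescapable shock and resilience cannot be told apart here. Beside the forms of Malat1, Nedd8 and Cox16 above, 2700060E02Rik had an isoform at 7.85 to 9.4 FPKM in Ctrl and 14.7, 14.2, 14.7 and 10.7 in NLH (0.65 ± 0.14, limma adjusted p = 0.313). It held 83.4% of its locus, and LH read 11.5 to 13.9 FPKM. NLH and LH overlapped, and both lay above Ctrl, while HC, at 10.6, 9.83, 8.17 and 13.1 FPKM, overlapped with all 3.

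A few assembled isoforms had a mean of at least 1 FPKM in 1 group, were under 0.1 FPKM in all 4 mice of another, and did not overlap between these groups. There were 29 of them (0.184% of the assembled isoforms), and 127 (0.403%) among the annotated transcripts of the same loci. Trpc4ap, an adaptor of a ubiquitin ligase, had one at 1.77, 1.83, 4.86 and 7.53 FPKM in Ctrl and at most 0.056 in LH. Acap2, a GTPase activating protein of Arf6, had one at 1.64, 2.17, 3.32 and 3.32 FPKM in LH and at most 0.0695 in HC and Ctrl. Pfkp, the platelet type of phosphofructokinase, had one at 3.37, 2.46, 4.35 and 4.36 FPKM in LH and at most 0.00938 in Ctrl. Fkbp2 had one at 5.7, 0.614, 2.06 and 3.07 FPKM in NLH and at most 0.000143 in Ctrl. For the Trpc4ap, Acap2 and Pfkp forms, LH vs. Ctrl did not pass, with limma adjusted p of 0.0987, 0.106 and 0.0733. The isoform of Srp54b and Srp54a, near-identical signal recognition genes that share reads, was at 10.9 FPKM in HC replicate 1, 11.6 in LH replicate 3 and at most 2.26 in any other mouse.

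Of the lists, none held an assembled isoform that passed the adjusted limma test in any comparison. By the methods' test in LH vs. Ctrl, beside the 9.88% of all assembled isoforms, 15 of 119 were called in presynaptic release genes (4 higher, 11 lower), 31 of 203 in postsynaptic genes (6 and 25), 22 of 112 in receptors (9 and 13) and 23 of 126 in calcium and cAMP signalling (4 and 19). The counts were 22 of 161 in chromatin regulators (5 and 17), 30 of 269 in splicing factors (11 and 19), 14 of 141 in cytoskeleton and motors (4 and 10) and 7 of 43 in immediate early and glucocorticoid genes (0 and 7). Lower calls outnumbered higher ones in all 8 lists, as they did among all assembled isoforms. In a count added after the values were seen, without LH replicates 3 and 4, this held for 7 of the lists, with 45 lower and 7 higher calls of 203 in postsynaptic genes and 25 and 4 of 112 in receptors, while cytoskeleton and motors had 10 lower and 14 higher of 141. In that setting 8.31% of all assembled isoforms were called lower and 6.91% higher, beside 3.99 and 9.72% of all transcripts. With all mice, the median log2 differences were −0.048, −0.134, −0.020, −0.254, −0.125, −0.058, −0.059 and −0.245 in the order given, beside −0.072 over all assembled isoforms. Of the marker lists, hippocampal neuron markers had 4 of 28 isoforms called in LH vs. Ctrl (0 higher, 4 lower) and 0 in LH vs. NLH. The 2 striatum and 3 choroid plexus isoforms had no call in either LH comparison with all mice. Without LH replicates 3 and 4, again added after the values were seen, both striatum isoforms were called higher in each of the LH comparisons. The choroid plexus isoforms were called higher for 3 of 3 against Ctrl and 1 of 3 against NLH, where 9.72 and 4.42% of all transcripts were called higher. Of the 28 hippocampal neuron isoforms, 6 were called lower and 0 higher against Ctrl in that setting, and 0 were called against NLH.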

How the data were processed

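The authors deposited FPKM as a single table with a value per transcript and mouse, made by assembling and merging transcripts over all libraries and quantifying them. The paper names HISAT2 as the aligner, while the submitters' processing notes name STAR 2.42a, StringTie 1.2.3, Cufflinks and mm10; replicates were not pooled. FPKM were used as deposited, without scaling between mice. Limma 3.58.1 (R 4.3.3, data.table, version 1.17.8) modelled log2(FPKM + 0.1) by the 4 group means over the 16 mice (trend and robust moderation), with Benjamini-Hochberg adjustment over 80137 transcripts. The share fit used the log2 ratio of an isoform to the rest of its locus, 0.1 added to each, over 73215 transcripts of loci with at least 2. Log2 differences are given ± SE, and understate changes of low transcripts. The methods' test on FPKM was a two-sided comparison of means with equal variances. Host genes were matched in GENCODE vM21 (60863 of 61220 Ensembl transcripts, 99.4%). Python 3.11.15, numpy 2.4.6, pandas 2.3.3, scipy 1.17.1 and matplotlib 3.10.9 were used.

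The members, gene lists and tests were chosen with earlier results of these data known. The isoforms named were the 8 highest, the 5 of at least 1 FPKM that had the lowest limma p of a comparison (and from the share fit in both LH comparisons), the 5 highest with a mean of at least 1 FPKM in 1 group and all mice of another under 0.1, the PCR loci, the 6 loci with the highest share and the highest loci of each list. Where others are named, the text says that they were chosen after their values were known. Alternatives were 0.01 or 1 added, a mean of at least 1 FPKM, size factors, the replicate number as a block, only the 8 mice compared, and mice left out. Some results are not reported here.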

Additional observations from a re-analysis of the deposited data

Results flagged for a closer look

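Of 136 sets of 4 mice (1 named isoform, or the share over all loci, in 1 group), 13 (9.56%) held a mouse flagged as far from the other 3 by Dixon's test. Sets with a highest value under 0.1 FPKM were counted among the 136 but could not be flagged. The chance rate of Dixon's test, about 1 in 20, assumes normal values, so it is no measure for these sets. The Ubap2l and Nrxn3 forms had such a mouse in both shocked groups. The Ubap2l form was at 0.935 FPKM in NLH replicate 1 (others 2.27 to 2.35) and 0.943 in LH replicate 2 (others at most 0.0181). The Nrxn3 form was at 1.62 FPKM in NLH replicate 4 (others 1.27 to 1.32) and 1.45 in LH replicate 2 (others 0.784 to 0.804). NLH replicate 1 was low for the Srrt form as well, at 0.646 FPKM (others 1.62 to 1.71).

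The rest were single mice. In Ctrl, replicate 2 was high for the 2900011O08Rik form, at 17.8 FPKM (others 12.2 to 13.1), and low for the Snx6 form, at 0.696 (others 1.06 to 1.13), and replicate 1 was low for the Ywhaz form, at 176 (others 184 to 186). In HC, replicate 2 was low for the Rps23 form, at 48.6 FPKM (others 59.4 to 61.6), and high for the Cit form, at 0.267 (others 0.0453 to 0.0826), and replicate 1 was high for the Gnptab form, at 0.191 (others at most 0.00225). LH replicate 1 was the only LH mouse with a level for the Epha5 form, at 0.128 FPKM (others at most 6.94e-06). NLH replicate 4 was low for the 2700060E02Rik form, at 10.7 FPKM (others 14.2 to 14.7).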

How the results depend on the processing

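None of the 28 named differences reversed. They were named for a small p in these same data, so this is no independent check. The majority of the calls of the methods' test in LH vs. NLH turned from lower (35.4% higher) to higher (53.7%) without LH replicates 3 and 4. Of the calls over all transcripts, 28.4% were higher with all mice and 69.1% in that setting. LH replicates 1 and 2, left there, had the highest summed FPKM of all mice. The counts of assembled isoforms past the adjusted limma threshold on level were small and moved with most settings. Counts over all transcripts in these settings are not given here. The moves on level and share therefore cannot be ascribed to assembled isoforms in particular. For LH vs. Ctrl (4), the count was 12 with 0.01 added, 1 with 1 added, 14 at a mean of at least 1 FPKM, 7 with size factors, 0 with the replicate block and 65 without LH replicates 3 and 4. For LH vs. NLH (3), it was 0 with 1 added, 0 at a mean of at least 1 FPKM, 0 with only the 8 mice compared and 10 without LH replicates 3 and 4. For NLH vs. Ctrl (0), it was 2 with only the 8 mice and 3 without LH replicates 3 and 4. For the 4 groups at once (9), it was 4 with 1 added, 1 with the replicate block and 65 without LH replicates 3 and 4. With the methods' test, a mean of at least 1 FPKM gave 790, 286, 653 and 668 calls in the 4 comparisons (15, 5.42, 12.4 and 12.7% of the assembled isoforms, beside 12.1, 4.63, 12.7 and 11.3% of all transcripts), adjustment gave 2, 0, 0 and 0, and leaving out LH replicates 3 and 4 gave 2392 and 1173 in the LH comparisons. On share, LH vs. Ctrl (2) gave 16 with 1 added, 5 at a mean of at least 1 FPKM and 0 with the replicate block. LH vs. NLH (2) gave 6 with 0.01 added, 1 with 1 added, 0 at a mean of at least 1 FPKM, 0 with the replicate block, 1 with only the 8 mice and 4 without LH replicates 3 and 4. NLH vs. Ctrl (0) gave 1 with 1 added and 3 with only the 8 mice, and Ctrl vs. HC (0) gave 2 with only the 8 mice. As a median over loci the group share was 18.8, 18.3, 17.5 and 18.6% in HC, Ctrl, NLH and LH, and among isoforms of at least 1 FPKM it was 19.7, 19.7, 19.0 and 20.1%. Leaving out 1 mouse gave 1 (without Ctrl replicate 1) to 66 (without LH replicate 2) on level in LH vs. Ctrl, 0 (without LH replicate 4) to 42 (without NLH replicate 1) in LH vs. NLH, 0 to 9 (without NLH replicate 1) in NLH vs. Ctrl, 0 to 1 (without Ctrl replicate 1 or 4) in Ctrl vs. HC and 4 (without HC replicate 1 or NLH replicate 3) to 40 (without LH replicate 2) over the 4 groups. The methods' test gave 1134 to 2039, 536 to 1050, 1029 to 1537 and 1074 to 1301. The share counts were 0 to 35 and 0 to 26 (both highest without LH replicate 2), 0 to 6 (without NLH replicate 1) and 0 to 1 (without Ctrl replicate 4), and the group shares 21.8 to 22.2, 21.8 to 22.2, 21.0 to 21.4 and 21.4 to 23.3%. The cause of these moves was not tested. Mice with the same replicate number did not deviate together (24 pairs, median r −0.00835, range −0.0575 to 0.0874), so the replicate block stands for a shared number only. Of 638 values of 28 named differences under the alternatives, 541 kept their side of the threshold, 63 lost it and 34 gained it. Most of the 28 had not passed with all mice, so keeping a side mostly meant staying outside the threshold. Only a difference that had passed could lose it. In LH vs. Ctrl, 2900011O08Rik stayed past in 18 of 23 alternatives, Malat1 in 11 of 23 and Baz2a in 14 of 22. In LH vs. NLH, Baz2a stayed past in 5 of 22, the Cox16 locus in 10 of 23 and Arnt2 in 14 of 22. The depth is unknown, and a value near 0 does not show that an isoform is absent.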
